A study of Mus musculus with 32 samples.

Results

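The genes described here code for the subunits of voltage-gated calcium channels, voltage-gated sodium channels and HCN channels, and for the sodium leak channel *Nalcn*. They were identified by symbol, as the genes named Cacna1, Cacnb, Cacna2d, Scn with a final a or b, Hcn and *Nalcn*, which gave 36 of the 23420 genes in the count tables. Of these, 33 passed the filter on low counts and were tested, and *Scn4a*, *Scn10a* and *Scn11a* did not. The older symbol *Scn2a1*, now *Scn2a*, falls outside the naming pattern, so it is described as an added gene and kept out of every count.

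Voltage-gated calcium and sodium channels have a large pore subunit, coded by the Cacna1 genes or by the Scn genes ending in a, and smaller accessory subunits that set how much of the pore protein reaches the membrane and how it gates. Sodium channels carry the rise of the action potential, calcium channels turn depolarization into calcium entry for transmitter release and gene regulation, and HCN channels, which open on hyperpolarization, and the leak channel set the resting potential and rhythmic firing. In the striatum most neurons are GABAergic projection neurons, which fire from a hyperpolarized resting state and receive glutamatergic input from the cortex and thalamus.

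RNA-seq counts were compared between the striatum of 8 B6.D2 congenic mice and 8 B6 mice, to ask which genes differ with a chromosome 11 segment under study for sensitivity to methamphetamine. B6 mice were wildtype C57BL/6J. Congenic mice, of strain C57BL/6J-DBA/2J in the labels, carried a segment of chromosome 11 from DBA/2J in heterozygous form, and B6 mice were their littermates. By the study's genotyping of its congenic lines the markers typed outside that segment were C57BL/6J, apart from a DBA/2J marker on another chromosome that occurred in both genotypes. Both genotypes were naïve, and by the labels they were about 50 days old and 3 mm punches of the left and right striatum were pooled per mouse, so a value stands for all cells of a punch. The study's methods give a narrower punch and an age span that reaches further. Females and males of each genotype were used in the study, but the labels give neither sex nor home cage per mouse. A lower level can come from fewer cells of a type or from less RNA per cell, and these cannot be told apart in such tissue. Reads counted on genes ranged from 19032826 to 33748353 per B6 mouse (median 30222554) and from 24912413 to 32085311 per congenic mouse. Mice 1 to 4 of each genotype ran on lanes 5 and 6 and mice 5 to 8 on lanes 7 and 8.

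Congenic mouse 1 stood apart from the other 15 mice. In its library 27.3% of reads had more than 1 alignment and 10.2% lay outside annotated exons, against 19.5% to 21.4% and 14.5% to 15.9% in the mice other than this one and B6 mouse 8. Set against the median of the other 7 congenic mice on the log2 scale, the 33 channel genes had a median deviation of -0.37 in this mouse, and 30 of 33 were lower. Over all genes its median deviation was 0.0082, with an SD between genes of 0.60. The 17 calcium, sodium and leak pore genes had a median of -0.71, the 10 calcium pore genes alone -0.82, and the 16 other channel genes -0.25. The deviation went below -1 for 5 genes, *Cacna1e* at -1.99, *Cacna1b* at -1.86, *Cacna1c* at -1.63, *Hcn4* at -1.46 and *Cacna1a* at -1.02.

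Long transcripts were low in that library across the genome. Across 13895 genes, which are not independent replicates, its deviation had a Pearson r of -0.49 with log2 exon length, and the 1391 shortest genes had a median deviation of 0.59 against -0.47 for the 1389 longest. Channel genes are long, with a median exon length of 8.39 kb against 3.67 kb over all tested genes with a length, and 17 of the 33 lay above 8.12 kb, the 90th percentile. B6 mouse 8 also differed from its group, with 68.3% of reads on genes and 11.3% outside exons, a low *Scn9a* (deviation -0.95) and *Cacna1g* (-0.69) and a high *Scn4b* (0.48). The part of library quality in the genotype differences was not tested, so log2 fold changes of channel genes over all 16 mice are given again without congenic mouse 1, which was singled out after its values were seen.

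**Figure D1:**
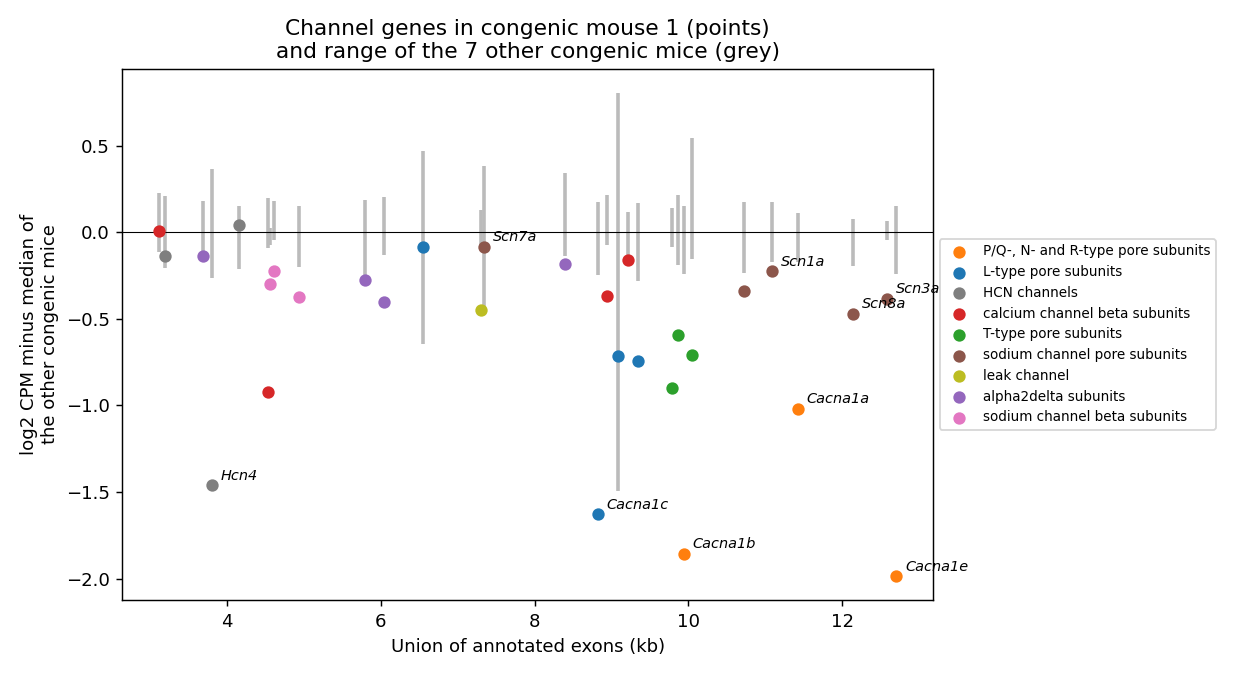
Deviation of congenic mouse 1 from the median of the other 7 congenic mice (vertical axis, log2 CPM) for 30 of the 33 tested channel genes, against exon length (horizontal axis, kb), coloured by class. Grey bars span the 7 other congenic mice, and 28 of the 30 points lie below 0, down to -1.99 for *Cacna1e*.

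With all 16 mice, 25 of the 33 tested channel genes were lower and 8 higher in congenic mice, with a median log2 fold change of -0.080 against 0.012 over all 15589 genes tested. By edgeR's quasi-likelihood test none of the 33 passed an FDR of 5%, where 0.00641% of all genes passed 5%. At an unadjusted p under 0.05 there were 9 channel genes, all 9 lower in congenic mice, which is 27.3% of those tested. Of all genes tested, 5.14% were lower at that threshold and 4.86% higher. Among the 9 channel genes were, in order of p, *Scn7a*, *Scn3a*, *Cacna1f*, *Cacna2d1*, *Cacna1s*, *Nalcn*, *Cacna1g* and *Cacnb4*. The likelihood ratio test of edgeR and DESeq2 each placed the same 9 under 0.05 and each passed 1 channel gene, *Scn7a*, at an FDR of 5%. Over all genes the likelihood ratio test had 9.60% under 0.05 and 0.128% at an FDR of 5%, and DESeq2 10.3% and 0.160%.

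The count depended on single mice. Without congenic mouse 1, 20 channel genes were lower and 13 higher, 28 of 33 kept their sign and the median was -0.039. There were again 9 under 0.05, of which 7 were the same genes and lower, beside 13.4% of all genes (7.54% lower, 5.82% higher). *Cacna1g* and *Cacnb4* were then above 0.05, and *Cacna1h* and *Cacna2d2*, both higher in congenic mice, came under it. Leaving out B6 mouse 2 brought the count from 9 to 4, with 7.09% of all genes under 0.05. Without B6 mouse 8 it was 7 (8.86% of all genes), and without both this mouse and congenic mouse 1 it was 10, 8 lower and 2 higher (12.8%). Of the 9, *Scn7a* and *Scn3a* were among those under 0.05 whichever of the 16 mice was left out.

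**Figure D2:**
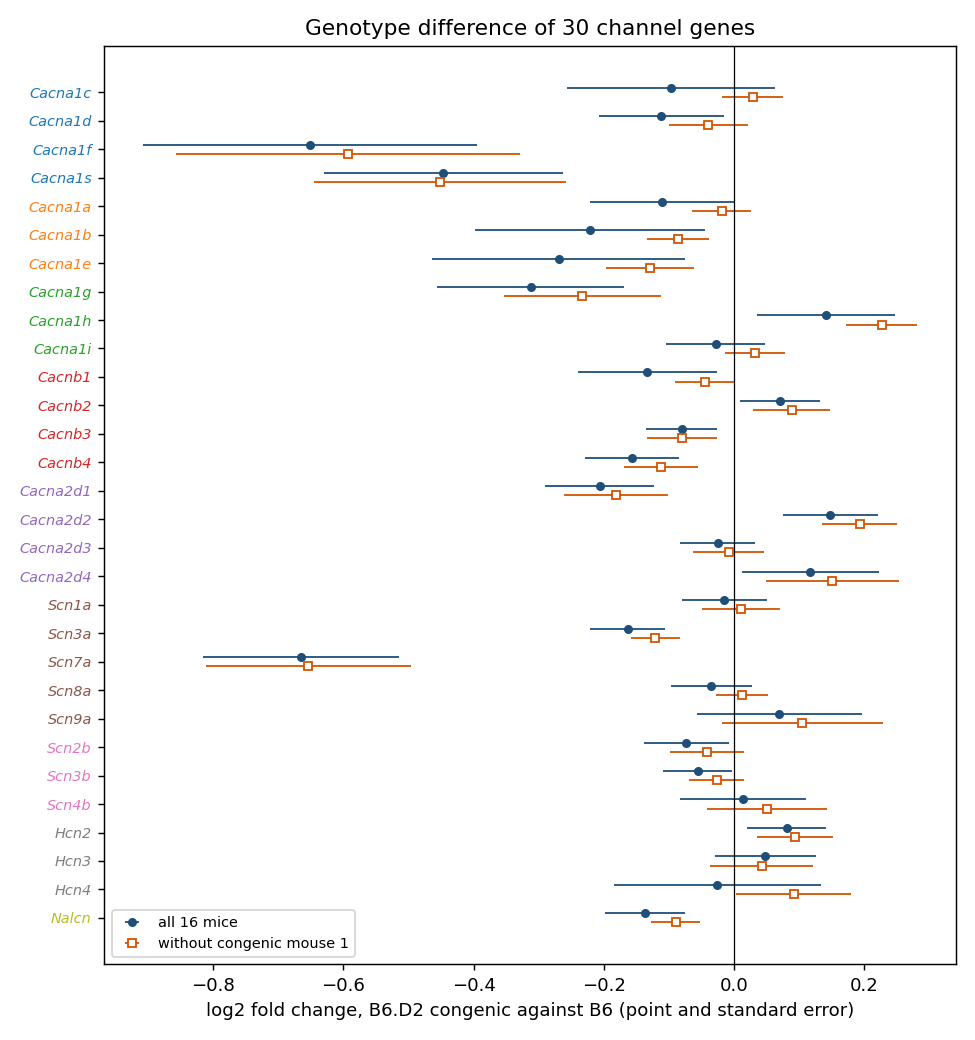
Log2 fold change of 30 of the 33 tested channel genes, B6.D2 congenic against B6 (horizontal axis, point and standard error), with all 16 mice (filled circles) and without congenic mouse 1 (open squares), genes grouped by class and coloured as such. With all mice 22 points lie below 0, and without congenic mouse 1, 17.

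Levels of different genes were compared per kb of exon, as mean ± SD over the 8 B6 mice of CPM (counts scaled to library size by TMM, the trimmed mean of M-values) divided by exon length. The highest of the 36 was the sodium channel beta subunit *Scn4b* at 348 ± 63.4 CPM per kb, and another of that class, *Scn2b*, was at 89.0 ± 9.93. Next came *Cacnb3* at 72.2 ± 5.37 and *Cacna2d3* at 69.9 ± 6.44, which lay within 1 SD of each other, and *Hcn2* at 55.0 ± 4.96. Of the calcium, sodium and leak pore genes among the 36, *Scn8a* was highest at 29.8 ± 1.34, below the added pore gene *Scn2a1* at 33.5 ± 3.19 and ahead of *Cacna1e* at 23.1 ± 2.60 and *Nalcn* at 19.4 ± 1.05. The 3 untested genes had the lowest means in B6 mice, but *Scn11a* at 0.0476 ± 0.0144 lay within 1 SD of *Cacna1f* at 0.0524 ± 0.0190. In congenic mice *Cacna1f*, at 0.0336, was below *Scn11a* at 0.0498 and *Scn10a* at 0.0348. *Scn4a*, the sodium channel of skeletal muscle, had 0 to 5 counts per mouse, and *Scn10a* and *Scn11a*, channels of peripheral sensory neurons, 1 to 13 and 3 to 13. Their exact two-sided permutation p was 0.729, 0.329 and 0.795, which at so few counts does not show that their levels were alike.

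**Figure D3:**
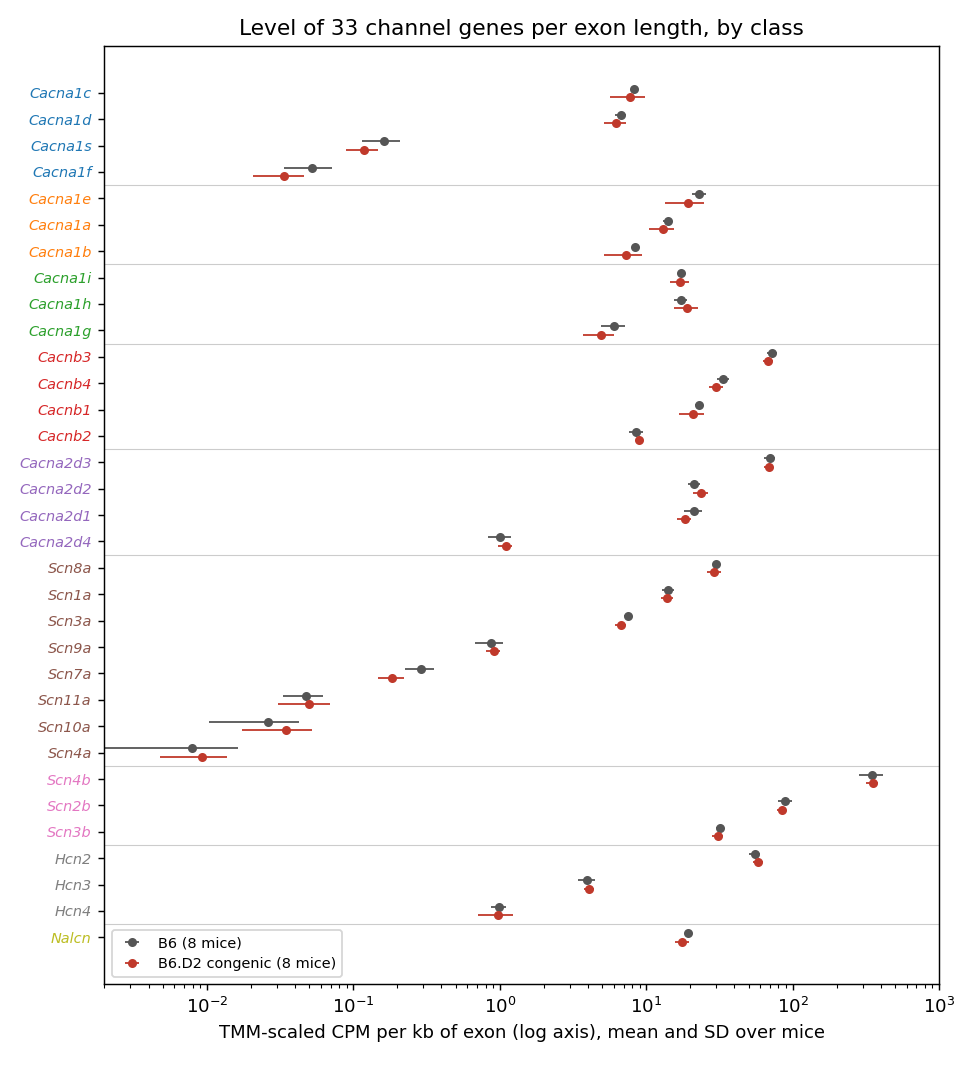
Level of 33 of the 36 channel genes in CPM per kb of exon (horizontal log axis), mean and SD over 8 B6 mice (grey) and 8 congenic mice (red), genes grouped by class and ordered by level. The lower bar of *Scn4a* in B6 mice runs off the axis because its SD is larger than its mean, and *Scn4b* is highest in both genotypes.

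L-type channels, blocked by dihydropyridines, couple depolarization to contraction in muscle and to gene regulation in neurons. All 4 of their pore genes were lower in congenic mice with all 16 mice, with a median log2 fold change of -0.28, and 3 of 4 without congenic mouse 1 (median -0.25). *Cacna1c* and *Cacna1d*, the usual L-type pores of the brain, made up 54.5% and 44.1% of the class per kb in B6 mice, at 8.30 ± 0.396 and 6.74 ± 0.582 CPM per kb. *Cacna1c* ranged from 67.0 to 78.6 CPM in B6 mice (median 72.9) and from 24.5 to 82.4 CPM in congenic mice (median 74.3). The lowest value was that of congenic mouse 1, the 7 others reached from 63.9 to 82.4 CPM, and 4 of 8 congenic mice lay on each side of the B6 median. A log2 fold change of -0.10 (SE 0.16) with FDR = 0.856, an unadjusted edgeR p of 0.552 and an exact two-sided permutation p = 0.732 turned to 0.029 (SE 0.047) without that mouse. *Cacna1d* had a fold change of -0.11 (SE 0.10) on the log2 scale, and -0.039 (SE 0.060) without congenic mouse 1.

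The class members under an unadjusted p of 0.05 were its scarcest. *Cacna1f*, the channel of photoreceptor terminals, had 3 to 27 counts per mouse and ranged from 0.262 to 0.811 CPM in B6 mice (median 0.438) and from 0.120 to 0.438 CPM in congenic mice (median 0.307). All 8 congenic mice were under the B6 median, with 4 of them below every B6 mouse, and the groups overlapped. The *Cacna1f* log2 fold change was -0.65 (SE 0.26) with FDR = 0.439, an unadjusted edgeR p of 0.0203 and an exact two-sided permutation p = 0.0308, and without congenic mouse 1 it was -0.59 (SE 0.26) with FDR = 0.349, an unadjusted edgeR p of 0.0372 and an exact permutation p = 0.055. *Cacna1s*, the voltage sensor of skeletal muscle, had 15 to 43 counts and ranged from 0.777 to 1.71 CPM in B6 mice (median 1.03) and from 0.525 to 1.09 CPM in congenic mice (median 0.808). B6 mouse 5 was the highest, 7 of 8 congenic mice lay under the B6 median and 3 below every B6 mouse. The *Cacna1s* difference was -0.45 (SE 0.18) in log2 with FDR = 0.456, an unadjusted edgeR p of 0.0255 and an exact two-sided permutation p = 0.037, and -0.45 (SE 0.19) without congenic mouse 1. *Cacna1f* came to an edgeR p of 0.0632 unadjusted without B6 mouse 2, and *Cacna1s* to 0.0513, 0.068, 0.0524 and 0.0571 without B6 mouse 2, B6 mouse 5, congenic mouse 5 and congenic mouse 8, each left out alone.

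P/Q-, N- and R-type channels admit the calcium that triggers transmitter release, and R-type channels also act in dendrites. The pores *Cacna1a* (P/Q), *Cacna1b* (N) and *Cacna1e* (R) were all lower in congenic mice, with a median log2 fold change of -0.22 that came to -0.086 without congenic mouse 1, where all 3 were still lower. None of the 3 was under an unadjusted p of 0.05 in either set of mice. *Cacna1e*, highest of the class per kb, ranged from 250.3 to 327 CPM in B6 mice (median 305) and from 68.0 to 292 CPM in congenic mice (median 266). Congenic mouse 1 was far below the others at 68.0 CPM, and the remaining 7 reached from 228 to 292 CPM, within the B6 range but for 1 mouse. All 8 congenic mice were under the B6 median. The log2 fold change of *Cacna1e* was -0.27 (SE 0.19) with FDR = 0.643, an unadjusted edgeR p of 0.183 and an exact two-sided permutation p = 0.0549, and -0.13 (SE 0.067) with FDR = 0.406, an unadjusted edgeR p of 0.0718 and an exact permutation p = 0.11 without congenic mouse 1. *Cacna1b* and *Cacna1a* went from -0.22 (SE 0.18) and -0.11 (SE 0.11) to -0.086 (SE 0.047) and -0.018 (SE 0.046).

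T-type channels open near the resting potential and support burst firing. Of their 3 pore genes 2 were lower and 1 higher in congenic mice with a median log2 fold change of -0.028, and 1 lower and 2 higher with a median of 0.033 without congenic mouse 1. *Cacna1i* and *Cacna1h* stood at 17.4 ± 0.778 and 17.2 ± 1.67 CPM per kb in B6 mice, less than 1 SD apart, and *Cacna1g* at 6.05 ± 1.12. *Cacna1g*, a pore of thalamic and other bursting neurons, ranged from 40.5 to 76.5 CPM in B6 mice (median 64.8) and from 29.1 to 65.0 CPM in congenic mice (median 46.0). B6 mouse 1 was the highest and B6 mouse 8 the lowest of its group, congenic mouse 1 the lowest of all, and the groups overlapped with 7 of 8 congenic mice under the B6 median. The *Cacna1g* log2 fold change was -0.31 (SE 0.14) with FDR = 0.487, an unadjusted edgeR p of 0.044 and an exact two-sided permutation p = 0.0608, then -0.23 (SE 0.12) with FDR = 0.399, an unadjusted edgeR p of 0.0687 and an exact permutation p = 0.119 without congenic mouse 1. Its edgeR p was above 0.05, at 0.0626 to 0.0994 unadjusted, when any 1 of B6 mice 1, 2, 4, 5 and 6 or congenic mice 1, 3, 4, 7 and 8 was left out.

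*Cacna1h*, described because of its values without congenic mouse 1, ranged from 148 to 194 CPM in B6 mice (median 169.6) and from 106 to 211 CPM in congenic mice (median 194). Congenic mouse 1 had the 106 CPM, below all B6 mice, while the 7 others had 186 to 211 CPM, all 7 above every B6 mouse but B6 mouse 7. The log2 fold change of *Cacna1h* was 0.14 (SE 0.11) with FDR = 0.652, an unadjusted edgeR p of 0.197 and an exact two-sided permutation p = 0.212, and without congenic mouse 1 0.23 (SE 0.054) with FDR = 0.204, an unadjusted edgeR p of 0.000526 and an exact permutation p = 0.00124. *Cacna1i* ranged from 156 to 183 CPM in B6 mice (median 171) and from 117 to 199.6 CPM in congenic mice (median 174), with congenic mice on both sides of the B6 values. Its log2 fold change of -0.028 (SE 0.076), with FDR = 0.919, an unadjusted edgeR p of 0.721 and an exact two-sided permutation p = 0.769, turned to 0.033 (SE 0.046) without congenic mouse 1.

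The beta subunits are cytoplasmic proteins that bind the calcium pore and bring it to the membrane. Of the 4, *Cacnb1*, *Cacnb3* and *Cacnb4* were lower and *Cacnb2* higher in congenic mice, with or without congenic mouse 1, and the median log2 fold change went from -0.11 to -0.062. *Cacnb3* held 52.6% of the class per kb in B6 mice. It ranged from 204 to 254 CPM in B6 mice (median 222) and from 195 to 246 CPM in congenic mice (median 211), and 7 of 8 congenic mice lay under the B6 median with broad overlap. The *Cacnb3* log2 fold change was -0.080 (SE 0.055) with FDR = 0.623, an unadjusted edgeR p of 0.162 and an exact two-sided permutation p = 0.165, and -0.079 (SE 0.054) without congenic mouse 1. *Cacnb4*, the beta subunit tied to epilepsy and ataxia in mice, ranged from 274 to 359 CPM in B6 mice (median 290.2) and from 209.7 to 314 CPM in congenic mice (median 270.4). B6 mouse 3 and B6 mouse 8 were the highest B6 mice, congenic mouse 1 the lowest of all, and 5 of 8 congenic mice lay below every B6 mouse. The *Cacnb4* log2 fold change was -0.16 (SE 0.072) with FDR = 0.487, an unadjusted edgeR p of 0.0444 and an exact two-sided permutation p = 0.0499, and -0.11 (SE 0.057) with FDR = 0.396, an unadjusted edgeR p of 0.064 and an exact permutation p = 0.0998 without congenic mouse 1. Its edgeR p was 0.0516 to 0.109 unadjusted without any 1 of B6 mice 2, 3, 6 and 8 or congenic mice 1, 4, 6, 7 and 8. Exons of *A430018G15Rik* on the opposite strand overlap 16.0% of the exon length of *Cacnb4*, and their reads cannot be told apart because counting ignored strand.

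The alpha2delta subunits sit on the outer face of the membrane, raise calcium channel density at synapses and, in the case of *Cacna2d1* and *Cacna2d2*, bind gabapentin. The class was divided, with *Cacna2d1* and *Cacna2d3* lower and *Cacna2d2* and *Cacna2d4* higher in congenic mice, with or without congenic mouse 1. *Cacna2d3* made up 61.5% of the class per kb in B6 mice, and *Cacna2d2* and *Cacna2d1*, at 21.3 ± 2.06 and 21.2 ± 3.00 CPM per kb, did not differ beyond their spread. *Cacna2d1* ranged from 148 to 225 CPM in B6 mice (median 173) and from 134 to 184 CPM in congenic mice (median 149). B6 mice 3 and 2 were the highest, and 7 of 8 congenic mice lay under the B6 median with 4 below every B6 mouse. The *Cacna2d1* log2 fold change was -0.21 (SE 0.083) with FDR = 0.445, an unadjusted edgeR p of 0.0232 and an exact two-sided permutation p = 0.0421, and -0.18 (SE 0.080) with FDR = 0.346, an unadjusted edgeR p of 0.0355 and an exact permutation p = 0.0789 without congenic mouse 1. Its edgeR p was 0.0518 unadjusted without B6 mouse 2 and 0.0603 without B6 mouse 3.

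*Cacna2d2*, the gene mutated in the ducky mouse, ranged from 114 to 145 CPM in B6 mice (median 125) and from 109.8 to 166 CPM in congenic mice (median 145), and congenic mouse 1 was the lowest of all while the 7 others were above the B6 median. The log2 fold change of *Cacna2d2* was 0.15 (SE 0.073) with FDR = 0.513, an unadjusted edgeR p of 0.0571 and an exact two-sided permutation p = 0.0724, and 0.19 (SE 0.058) with FDR = 0.235, an unadjusted edgeR p of 0.00338 and an exact permutation p = 0.00932 without congenic mouse 1. With that mouse kept, its edgeR p was 0.0313 to 0.0489 unadjusted when B6 mouse 1, 4 or 7 or congenic mouse 2 was left out alone. *Cacna2d3* ranged from 229 to 303 CPM in B6 mice (median 253) and from 232 to 285 CPM in congenic mice (median 253), and its log2 fold change was -0.024 (SE 0.058) with FDR = 0.903, an unadjusted edgeR p of 0.678 and an exact two-sided permutation p = 0.688, coming to -0.0078 (SE 0.054) without congenic mouse 1 and turning to 0.012 without B6 mouse 3. *Cacna2d4*, mostly a retinal subunit, was at 1.01 ± 0.177 CPM per kb in B6 mice, with a log2 fold change of 0.12 (SE 0.11), 0.15 (SE 0.10) without congenic mouse 1 and 0.067 without B6 mouse 8.

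Of the 9 sodium channel pore genes 6 were tested, 5 lower and 1 higher in congenic mice with a median log2 fold change of -0.10, and 3 lower and 3 higher with a median of -0.050 without congenic mouse 1. *Scn8a*, the pore of the axon initial segment, and *Scn1a*, the main pore of fast-spiking interneurons, were the highest of these 9 per kb in B6 mice, at 29.8 ± 1.34 and 14.1 ± 1.32 CPM per kb, both below *Scn2a1*, which is not counted among them. *Scn8a* ranged from 331 to 380.0 CPM in B6 mice (median 364) and from 269.5 to 383 CPM in congenic mice (median 368), with B6 mouse 8 and congenic mouse 1 the lowest of their groups. The *Scn8a* log2 fold change was -0.034 (SE 0.063) with FDR = 0.869, an unadjusted edgeR p of 0.591 and an exact two-sided permutation p = 0.648, and 0.013 (SE 0.040) without congenic mouse 1, a change of sign. *Scn1a* was at -0.014 (SE 0.065) and, without that mouse, 0.011 (SE 0.060). Without B6 mouse 8 the log2 fold changes of *Scn8a* and *Scn1a* were -0.054 and -0.056.

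With all 16 mice *Scn7a* had the smallest p of the channel genes, while without congenic mouse 1 the edgeR p of *Cacna1h* was smaller. *Scn7a* codes for a sodium channel relative that senses extracellular sodium and is found in glia and sensory neurons. It was scarce here, at 29 to 104 counts per mouse. It ranged from 1.70 to 3.05 CPM in B6 mice (median 1.87) and from 0.963 to 1.73 CPM in congenic mice (median 1.33). B6 mice 1, 2 and 6 were above 2 CPM, 7 of 8 congenic mice lay below every B6 mouse, and only congenic mouse 4 overlapped the lowest B6 mouse. The *Scn7a* log2 fold change was -0.67 (SE 0.15) with FDR = 0.331, an unadjusted edgeR p of 0.00032 and an exact two-sided permutation p = 0.000311, and -0.65 (SE 0.16) with FDR = 0.204, an unadjusted edgeR p of 0.000564 and an exact permutation p = 0.000622 without congenic mouse 1. With DESeq2 it was -0.67 with FDR = 0.0445, and by the likelihood ratio test of edgeR FDR = 0.0330. Within lanes 5 and 6 the *Scn7a* value was -0.63 and within lanes 7 and 8 -0.70.

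*Scn3a*, a pore most abundant before and soon after birth, ranged from 86.4 to 105 CPM in B6 mice (median 93.5) and from 66.4 to 90.5 CPM in congenic mice (median 86.6). All 8 congenic mice were under the B6 median, 7 of 8 B6 mice were above every congenic mouse, and congenic mouse 1 was set off below the rest, which began at 84.0 CPM. The *Scn3a* log2 fold change was -0.16 (SE 0.058) with FDR = 0.406, an unadjusted edgeR p of 0.011 and an exact two-sided permutation p = 0.00186, and without congenic mouse 1 -0.12 (SE 0.037) with FDR = 0.236, an unadjusted edgeR p of 0.00462 and an exact permutation p = 0.00373. *Scn2a1*, a main pore of principal neurons kept outside the counts, ranged from 275 to 355 CPM in B6 mice (median 305) and from 203 to 304 CPM in congenic mice (median 269). Again all 8 congenic mice were under the B6 median. The *Scn2a1* log2 fold change was -0.19 (SE 0.076) with FDR = 0.437, an unadjusted edgeR p of 0.0195 and an exact two-sided permutation p = 0.0191, and -0.14 (SE 0.057) with FDR = 0.307, an unadjusted edgeR p of 0.0208 and an exact permutation p = 0.0382 without congenic mouse 1. *Scn9a*, a pore of pain-sensing neurons, changed sign without 1 B6 mouse, going from 0.070 (SE 0.13) to -0.028 without B6 mouse 8, at 4.94 CPM, and to 0.11 (SE 0.12) without congenic mouse 1.

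Several of these genes lie side by side. In the RefSeq annotation of GRCm38.p6, *Scn3a* (chromosome 2, from 65457118 to 65567591), *Scn2a1* (from 65620764), *Scn1a* (from 66270781), *Scn9a* (from 66480080) and *Scn7a* (from 66673426 to 66784910) lie in this order, and of them *Scn3a*, *Scn2a1* and *Scn7a* were under an unadjusted p of 0.05 and *Scn1a* and *Scn9a* were not. Sodium channel pores share stretches of sequence, and since reads with more than 1 alignment were left out of the counts, paralogs may lose reads there. On chromosome 11, which carries the DBA/2J segment, lie *Cacna1g* (from 94408391 to 94474400), *Cacnb1* (from 98001508) and *Scn4a* (from 106317545), and the other 33 of the 36 lie on other chromosomes. These genes on chromosome 11 all lie distal to the segment that the study's genotyping gives for the line, so none is within it. *Nalcn* is on chromosome 14, from 123275678 to 123627330.

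The sodium channel beta subunits are single-pass membrane proteins that speed channel gating and act in cell adhesion, and *Scn4b*, which helps produce resurgent sodium current, is known for its high level in striatal projection neurons. *Scn4b* made up 55.0% of the class per kb in B6 mice. It ranged from 1373 to 2305 CPM in B6 mice (median 1710.5) and from 1410.3 to 1904 CPM in congenic mice (median 1769.5). B6 mouse 8 was by far the highest, and without it B6 mice ended at 1902 CPM, under the highest congenic mouse. The *Scn4b* log2 fold change was 0.014 (SE 0.10) with FDR = 0.970, an unadjusted edgeR p of 0.884 and an exact two-sided permutation p = 0.895, and 0.051 (SE 0.092) without congenic mouse 1. It had the opposite sign in 6 of the 16 sets with 1 mouse left out, where it reached from -0.024 to 0.084. *Scn2b* and *Scn3b* were at -0.073 (SE 0.065) and -0.055 (SE 0.053), and without congenic mouse 1 at -0.041 (SE 0.057) and -0.026 (SE 0.043). Without B6 mouse 8, the highest mouse for *Scn2b* at 497 CPM, they were at -0.029 and -0.036. None of these 3 was under an unadjusted p of 0.05 with all mice or without either of these mice.

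Among HCN channels *Hcn2* made up 80.7% of the class per kb in B6 mice. *Hcn2* ranged from 149.8 to 194 CPM in B6 mice (median 179) and from 166 to 209 CPM in congenic mice (median 186), with congenic mice spread on both sides of the B6 median. The *Hcn2* log2 fold change was 0.081 (SE 0.060) with FDR = 0.650, an unadjusted edgeR p of 0.193 and an exact two-sided permutation p = 0.203, and 0.094 (SE 0.059) without congenic mouse 1. *Hcn3* was at 0.049 (SE 0.078), at 0.043 (SE 0.079) without that mouse and at 0.0028, close to 0, without B6 mouse 8, and 17.1% of its exon length overlaps *Pklr* on the opposite strand. *Hcn4*, the pacemaker isoform of the heart, went from -0.025 (SE 0.16) to 0.093 (SE 0.088) without congenic mouse 1, and to -0.055 without B6 mouse 8. The class median was 0.012, and 0.068 without congenic mouse 1 and -0.026 without B6 mouse 8. It also lay under 0, no lower than that, when B6 mouse 3 or congenic mouse 6, 7 or 8 was left out.

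*Nalcn*, which carries the sodium leak that depolarizes neurons at rest, ranged from 135 to 158 CPM in B6 mice (median 139) and from 97.7 to 140.2 CPM in congenic mice (median 131). B6 mouse 8 was the highest and congenic mouse 1 the lowest, 6 of 8 congenic mice were under the B6 median and 5 below every B6 mouse. The *Nalcn* log2 fold change was -0.14 (SE 0.062) with FDR = 0.476, an unadjusted edgeR p of 0.0393 and an exact two-sided permutation p = 0.0145, and without congenic mouse 1 -0.089 (SE 0.037) with FDR = 0.331, an unadjusted edgeR p of 0.0282 and an exact permutation p = 0.0289. Its edgeR p was 0.0524 to 0.0749 unadjusted when B6 mouse 1, 3 or 8 or congenic mouse 2, 5 or 6 was left out alone. All 3 tested genes of its complex, *Unc79*, *Unc80* and *Fam155a*, were lower in congenic mice too, at -0.082, -0.14 and -0.092 in log2 fold change, and at -0.0056, -0.091 and -0.12 without congenic mouse 1, none under an unadjusted p of 0.05 in either set. The *Unc79* difference was close to 0 without that mouse, which had 65.1 CPM against at least 100.3 CPM in the other 7.

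**Figure D4:**
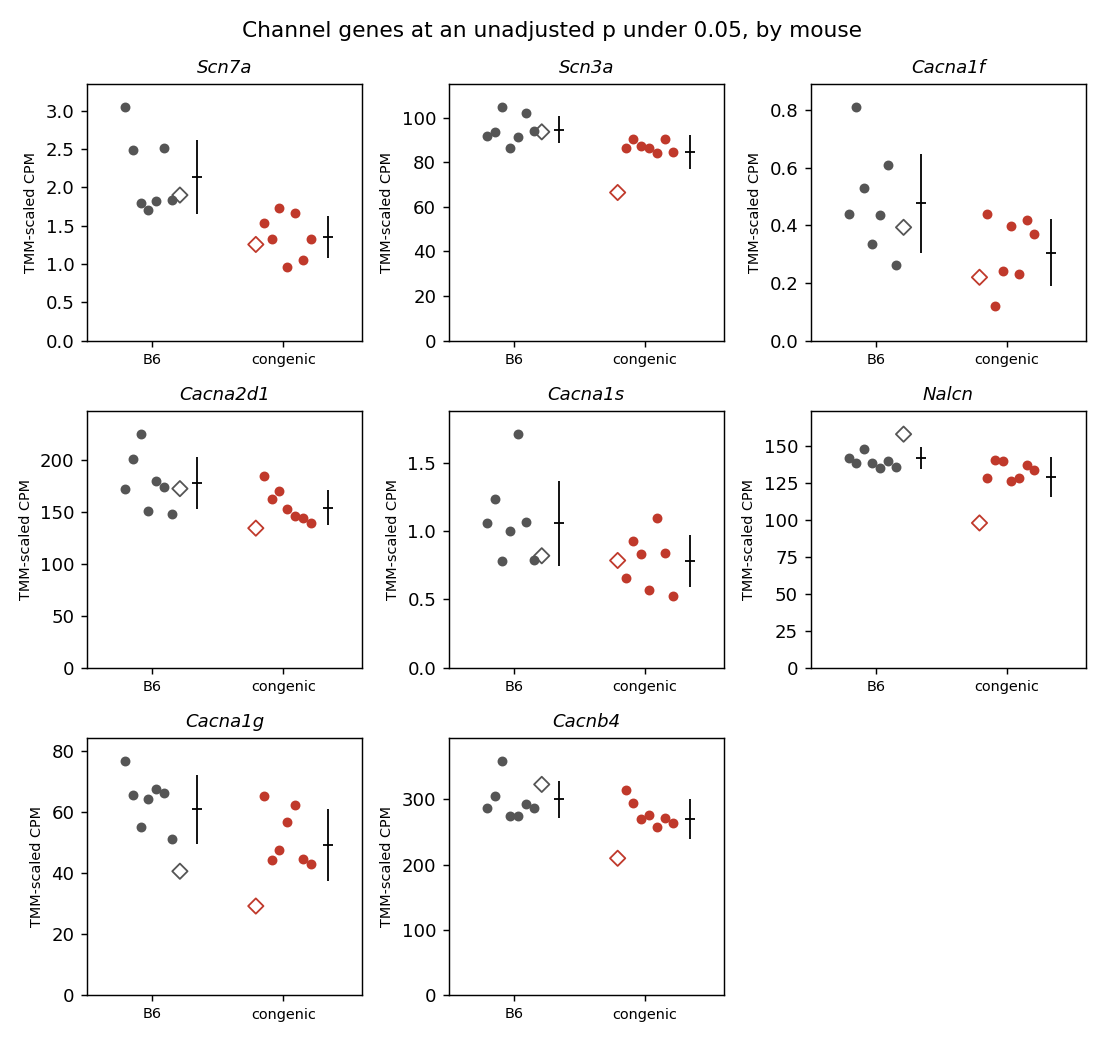
TMM-scaled CPM (vertical axis) in each of 8 B6 mice (grey) and 8 congenic mice (red) for 8 of the 9 channel genes at an unadjusted p under 0.05, with mean and SD beside the points. Open diamonds mark B6 mouse 8 and congenic mouse 1, and the groups overlap for each gene.

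Whether the genotype difference changed with the lane pair was tested as an interaction. No channel gene passed an FDR of 5% by edgeR's quasi-likelihood test, and 1 of 33, *Scn9a*, was under an unadjusted p of 0.05, beside 1.88% of all genes. The *Scn9a* log2 fold change was -0.19 within lanes 5 and 6 and 0.35 within lanes 7 and 8 (FDR = 0.950), and B6 mouse 8 is in the latter. Within the lane pairs *Scn3a* was at -0.19 and -0.14, and *Cacna1f* at -1.03 and -0.29. Without congenic mouse 1 the values in lanes 5 and 6 were -0.095 for *Scn3a*, then the smaller of its 2 lane pairs, and -0.96 for *Cacna1f*. In the mice of lanes 5 and 6 alone 4 channel genes were under an unadjusted p of 0.05, all lower, beside 3.20% of all genes. Without congenic mouse 1, a setting chosen after seeing the data, there were 5 in these lanes, 3 lower and 2 higher, beside 4.67%. In lanes 7 and 8 alone there were 8, 6 lower and 2 higher, beside 9.01%.

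Markers of cortical glutamatergic neurons were lower in congenic mice as well. The 10 markers were chosen with earlier results of these data known, so their counts are not independent of those results. *Slc17a7* among them had already been reported as lower by the study. All 10 had a lower level and 8 of 10 were under an unadjusted p of 0.05, with or without congenic mouse 1, beside 5.14% and 7.54% of all genes lower at that threshold in these sets, none at an FDR of 5% by edgeR, and their median log2 fold change was -0.56, and -0.57 without that mouse. Their summed level ranged from 456 to 752 CPM in B6 mice (median 653) and from 294 to 655 CPM in congenic mice (median 439), led by *Slc17a7* at 342 CPM, and none was at 0 in all mice. The 12 symbols listed for striatal projection neurons hold *Drd1* and its older symbol *Drd1a*, and the gene was counted as *Drd1a*. Of the 11 markers counted, 3 were lower and 8 higher, with 0 under an unadjusted p of 0.05 by edgeR. Their median log2 fold change was 0.034, or 0.026 without congenic mouse 1. The striatal sum ranged from 5952 to 8786 CPM in B6 mice (median 6768), where B6 mouse 8 was the highest, and from 6492 to 7572 CPM in congenic mice (median 7411), led by *Pde10a* at 1512 CPM. The part of cortical tissue in the channel differences was not tested.

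The other marker lists had positive medians, with or without congenic mouse 1, and that of the thalamic list came close to 0 without it. Thalamic markers had 2 lower and 3 higher of 5 tested, 1 under an unadjusted p of 0.05, a median log2 fold change of 0.10 (0.0099 without congenic mouse 1) and a median sum of 56.7 CPM in B6 and 54.0 CPM in congenic mice, led by *Prkcd*. Markers of hypothalamus and ventral forebrain had 1 lower and 3 higher of 4 tested, 2 under an unadjusted p of 0.05, a median log2 fold change of 0.18 (0.12 without congenic mouse 1) and a median sum of 24.6 CPM in B6 and 27.2 CPM in congenic mice, led by *Lhx8*, while *Sim1*, *Pmch*, *Hcrt* and *Oxt* of that list were too scarce to test. Parvalbumin and other interneuron markers had 2 lower and 4 higher of 6 tested, 0 under an unadjusted p of 0.05, a median log2 fold change of 0.015 (0.031 without congenic mouse 1) and a median sum of 974 CPM in B6 and 1010.3 CPM in congenic mice, led by *Gad2*, and without congenic mouse 1 there were 2 under 0.05, both lower. Cholinergic interneuron markers had 0 lower and 3 higher of 3 tested, 2 under an unadjusted p of 0.05, a median log2 fold change of 0.19 (0.18 without congenic mouse 1) and a median sum of 77.1 CPM in B6 and 83.6 CPM in congenic mice, led by *Slc5a7*, with 1 under 0.05 without congenic mouse 1. Oligodendrocyte markers had 0 lower and 5 higher of 5 tested, 0 under an unadjusted p of 0.05, a median log2 fold change of 0.10 (0.056 without congenic mouse 1) and a median sum of 11844 CPM in B6 and 12044 CPM in congenic mice, led by *Mbp*. For oligodendrocyte precursors there were 1 lower and 1 higher of 2 tested, 0 under an unadjusted p of 0.05, a median log2 fold change of 0.073 (0.14 without congenic mouse 1) and a median sum of 109.8 CPM in B6 and 115 CPM in congenic mice, led by *Pdgfra*. Astrocyte markers had 2 lower and 2 higher of 4 tested, 0 under an unadjusted p of 0.05, a median log2 fold change of 0.050 (0.046 without congenic mouse 1) and a median sum of 1052 CPM in B6 and 1089 CPM in congenic mice, led by *Slc1a3*. Vascular smooth muscle and pericyte markers had 0 lower and 4 higher of 4 tested, 2 under an unadjusted p of 0.05, a median log2 fold change of 0.29 (0.29 without congenic mouse 1) and a median sum of 85.9 CPM in B6 and 106 CPM in congenic mice, led by *Pdgfrb*. Choroid plexus markers had 0 lower and 3 higher of 3 tested, 0 under an unadjusted p of 0.05, a median log2 fold change of 0.22 (0.30 without congenic mouse 1) and a median sum of 42.9 CPM in B6 and 80.0 CPM in congenic mice, led by *Ttr*. The thalamic marker under 0.05 was lower in congenic mice, and those of hypothalamus and ventral forebrain, cholinergic interneurons and vascular cells were higher. Of all genes, 5.14% were lower and 4.86% higher at this threshold, and 7.54% and 5.82% without congenic mouse 1. No list had a marker at an FDR of 5% by edgeR, and their part in the channel differences was not tested.

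Some channel genes also varied between mice of the same genotype with the marker genes. Each gene's log2 CPM, centred on its genotype mean, was correlated over 16 mice with the mean log2 CPM of the striatal and of the cortical marker list, 66 relations in all, and 9 passed an FDR of 5%, 7 with the striatal score and 2 with the cortical score, by Pearson's r. These correlations are given for channel genes alone. The 9 can therefore not be set against a share of all genes, and whether channel genes stand out in this was not tested. By Spearman's rho 4 of the 9 passed an FDR of 5%, all with the striatal score, *Scn4b*, *Cacna2d3*, *Scn2b* and *Hcn3*, and the FDR of the other 5 was 0.0535 to 0.131. *Scn4b* had the highest, with Pearson r = 0.92 (permutation p = 1e-05, FDR = 0.000660), Spearman rho = 0.93 (permutation p = 1e-05), r = 0.87 and 0.99 within the lane pairs and 0.87 without the 2 mice farthest from the median of the score, B6 mice 5 and 8. A permutation p of 1e-05 is the smallest that 100000 permutations can give. Also positive with the striatal score, *Scn2b* had r = 0.84 (permutation p = 0.00014, FDR = 0.00396) and rho = 0.83 (permutation p = 0.00018), with r at 0.69 and 0.94 within the lane pairs and 0.65 without the 2 mice. *Cacna2d3* had r = 0.75 (permutation p = 0.00085, FDR = 0.0140) and rho = 0.91 (permutation p = 1e-05), with r at 0.89 and 0.92 within the lane pairs and 0.83 without the 2 mice. On the negative side, *Hcn3* had r = -0.79 (permutation p = 0.00018, FDR = 0.00396) and rho = -0.76 (permutation p = 0.00109), with r at -0.90 and -0.78 within the lane pairs and -0.74 without the 2 mice. *Scn9a* had r = -0.72 (permutation p = 0.00337, FDR = 0.0318) and rho = -0.59 (permutation p = 0.0172), with r at -0.55 and -0.79 within the lane pairs and -0.48 without the 2 mice. *Cacna1s* had r = -0.67 (permutation p = 0.00432, FDR = 0.0356) and rho = -0.54 (permutation p = 0.0351), with r at -0.53 and -0.72 within the lane pairs and -0.58 without the 2 mice. *Scn1a* had r = -0.65 (permutation p = 0.00631, FDR = 0.0463) and rho = -0.56 (permutation p = 0.0259), with r at -0.18 and -0.94 within the lane pairs and -0.34 without the 2 mice, the largest fall of the 9. Without congenic mouse 1 its r was -0.77, and -0.53 without the 2 mice as well.

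With the cortical score, *Cacna2d1* had Pearson r = 0.69 (permutation p = 0.00294, FDR = 0.0318), Spearman rho = 0.66 (permutation p = 0.00697), r = 0.64 and 0.73 within the lane pairs and 0.63 without the 2 mice farthest from the median of this score, congenic mice 2 and 7. *Cacnb3* had r = 0.68 (permutation p = 0.00336, FDR = 0.0318) and rho = 0.66 (permutation p = 0.00673), with r at 0.77 and 0.62 within the lane pairs and 0.49 without the 2 mice. Among the 9 genes lower in congenic mice at an unadjusted p under 0.05, r with the cortical score reached from -0.18 (*Nalcn*) to 0.69 (*Cacna2d1*), and 1 of 9 passed an FDR of 5%, while *Scn7a* and *Scn3a* had r = 0.34 and -0.020. Without congenic mouse 1, 13 of 66 relations passed an FDR of 5% by r, 10 of them by rho too, again with no share of all genes to set beside them. Among the 13 were all 9 of the above with the same sign. The 4 added were 2 with the cortical score and 2 with the striatal score. With the cortical score *Cacna2d2* had r = -0.70 (permutation p = 0.00349, FDR = 0.0230) and rho = -0.66 (permutation p = 0.008), with r at -0.70 and -0.70 within the lane pairs and -0.59 without the 2 mice. With the striatal score *Cacna1g* had r = -0.75 (permutation p = 0.00104, FDR = 0.00998) and rho = -0.61 (permutation p = 0.0182), with r at -0.61 and -0.83 within the lane pairs and -0.60 without the 2 mice. *Cacnb1* had r = 0.69 (permutation p = 0.00421, FDR = 0.0244) and rho = 0.67 (permutation p = 0.0078), with r at 0.41 and 0.96 within the lane pairs and 0.51 without the 2 mice.

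**Figure D5:**
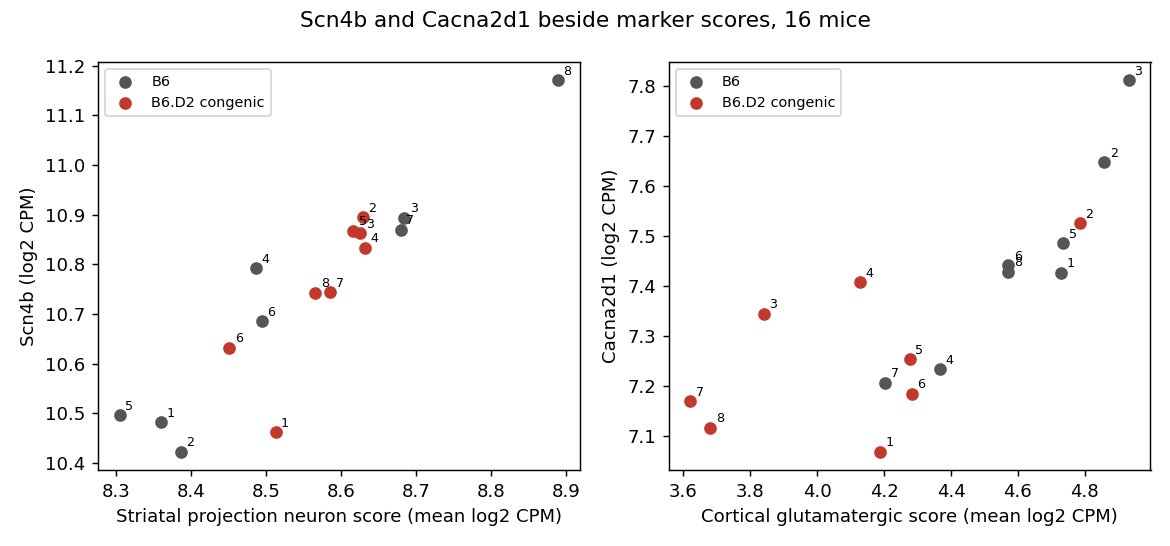
*Scn4b* against the striatal projection neuron score (left) and *Cacna2d1* against the cortical glutamatergic score (right), both axes in log2 CPM, each point a mouse with its number, B6 grey and congenic red. Values are shown before centring on genotype, and after centring r was 0.92 and 0.69.

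Genes whose products bind or anchor these channels were counted from a list of 32, of which 30 were tested, *Cacng6* being too scarce and *Fam155b* not analysed here. Of the 30, 17 were lower and 13 higher in congenic mice with a median log2 fold change of -0.071 (-0.027 without congenic mouse 1), and 4 were under an unadjusted p of 0.05, all lower, beside the 5.14% of all genes that were lower at that threshold. By edgeR none passed an FDR of 5%. *Nrcam*, a cell adhesion protein of the axon initial segment and nodes, ranged from 242 to 308 CPM in B6 mice (median 279.9) and from 169 to 256 CPM in congenic mice (median 243), with all 8 congenic mice under the B6 median. The *Nrcam* log2 fold change was -0.25 (SE 0.076, FDR = 0.365), and -0.19 without congenic mouse 1. *Rims1*, a scaffold of the presynaptic active zone that binds calcium channels, was at -0.41 (SE 0.18, FDR = 0.476), with congenic mouse 1 at 27.7 CPM against 77.7 to 116 CPM in the other 7, and at -0.27 without it. *Stac2*, an adaptor of L-type channels, was at -0.19 (SE 0.075, FDR = 0.433) and *Fgf12*, which binds the tail of sodium channels, at -0.13 (SE 0.058, FDR = 0.477), and without congenic mouse 1 they were at -0.19 and -0.13. Without congenic mouse 1, 7 were under 0.05, 5 lower with *Fgf13* added (-0.14) and 2 higher, *Sptbn4* (0.13) and *Ank3* (0.078), both scaffolds of the axon initial segment, beside 7.54% of all genes lower and 5.82% higher in that set.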

How the data were processed

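Punches of striatum from 8 B6 and 8 B6.D2 congenic mice were sequenced as 50 bp single-end reads from a TruSeq Stranded mRNA library. Per the labels and the deposited scripts, the authors trimmed reads to 50 bases, checked reads with FastQC 0.10.1, aligned them with TopHat and bowtie2 2.2.2 to mm10 and used htseq-count 0.6.1p1 (union mode, strand ignored) to count them by gene, and the deposited values are raw counts per mouse and lane. Reads on no gene, on more than 1 gene or with more than 1 alignment are listed apart by the authors and stayed out of library sizes, at 10.2% to 15.9%, 0.820% to 1.07% and 19.5% to 27.3% of reads. The authors' own comparison tables, which hold log2 fold changes, p-values, FDRs and a likelihood ratio score, were not used here. Their model included home cage, which the labels do not give.

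The 31 lane files were summed per mouse, since the 2 files of 15 mice differed by little more than counting noise (chi-square per degree of freedom 0.997 to 1.05), and for B6 mouse 7 1 file was analysed here. After filterByExpr and TMM scaling, genotypes were compared in edgeR 4.0.16 under R 4.3.3 by quasi-likelihood, and p-values of the 15589 genes that passed were adjusted together by the Benjamini-Hochberg method. The fits and correlations were tested on simulated data. The SE is the size of the log2 fold change divided by the square root of F. Exact two-sided permutation tests used TMM-scaled CPM (scipy 1.17.1, Python 3.11), and correlations used log2 CPM with a prior count of 0.5, 100000 two-sided permutations and Benjamini-Hochberg adjustment over 66 relations. Exon lengths came by symbol from GENCODE on NCBIM37 and positions from RefSeq on GRCm38.p6. Counting error is small at this depth for genes of many counts, so the spread between mice sets their precision. In scarce genes the spread also holds counting error. *Cacna1f* had 3 to 27 counts per mouse, *Cacna1s* 15 to 43 and *Scn7a* 29 to 104. 3 of the 36 genes are not reported here, though counts, shares and medians over classes or all channel genes include them. Otherwise described in full are channel genes at an unadjusted p under 0.05, the highest per kb of each class, and *Cacna1g*. *Cacna1h* and *Cacna2d2* were added after their values were seen. Members, classes and lists were chosen with earlier results of these data known. Alternatives were other normalizations, filters, tests (DESeq2 1.42.0), lane pair or mouse number as a term, 1 lane file, each lane pair alone and each mouse left out. Those leaving out congenic mouse 1 together with B6 mouse 8 or with a lane pair, and the correlations without congenic mouse 1, were chosen after seeing the data.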

Additional observations from a re-analysis of the deposited data

Results flagged for a closer look

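In 12 of 60 groups of 8 mice (30 channel genes in each genotype) the highest or the lowest mouse lay far from the rest, its gap to the nearest mouse being a larger share of the whole range than Dixon's critical value allows. Chance marks about 1 in 20 such groups, and the share of all genes marked by this rule is not given here. Over all genes the SD of the log2 deviation was 0.60 in congenic mouse 1 and 0.37 in B6 mouse 8, the next highest. Congenic mouse 1 accounted for 10. It was the lowest of its genotype at 24.5 CPM for *Cacna1c*, 78.9 for *Cacna1a*, 22.2 for *Cacna1b*, 68.0 for *Cacna1e*, 105.7 for *Cacna1h*, 52.1 for *Cacnb1*, 66.4 for *Scn3a*, 323.1 for *Scn2b*, 1.51 for *Hcn4* and 97.7 for *Nalcn*. B6 mouse 8 was the lowest B6 mouse at 136.7 CPM for *Cacna1a* and 4.94 CPM for *Scn9a*. In congenic mouse 1 these values go with a share of 27.3% of reads with more than 1 alignment, the highest of the 16 mice, and its part in them was not tested.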

How the results depend on the processing

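Over 29 settings, 16 of them with 1 mouse left out, 18 of 33 channel genes kept their sign wherever they were tested, and so did the 9 at an unadjusted p under 0.05. *Cacna1f* was tested in 27 of the 29 and *Cacna1s* in 28, being under the filter on counts in the others. The count of 9 (beside 5.14% of all genes lower and 4.86% higher) reached from 4 (without B6 mouse 2, beside 7.09%) to 11 (without B6 mouse 7, 11.5%) with 1 mouse left out. It was 4 in the mice of lanes 5 and 6 alone (3.20%), 5 in these without congenic mouse 1 (4.67%) and 8 in lanes 7 and 8 alone (9.01%). The count of 0 at an FDR of 5% by the quasi-likelihood test became 1 by the likelihood ratio test and 1 by DESeq2.

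Among the genes reported here, signs turned, in log2 fold change, in lanes 5 and 6 alone for *Cacna2d3* 0.029, *Scn9a* -0.19 and *Hcn3* -0.086. In lanes 7 and 8 alone they turned for *Scn1a* 0.077, *Scn4b* -0.083 and *Hcn4* 0.24. With lanes 5 and 6 alone and congenic mouse 1 left out, a setting chosen after seeing the data, they turned for *Cacna1c* 0.10, *Cacna1d* 0.015, *Cacna1i* 0.077, *Cacnb1* 0.014, *Cacnb3* 0.0061, *Cacna2d3* 0.080, *Scn8a* 0.046, *Scn9a* -0.13, *Scn2b* 0.012 and *Hcn3* -0.12. Without both B6 mouse 8 and congenic mouse 1, also chosen after seeing the data, they turned for *Cacna1c* 0.027, *Cacna1i* 0.046, *Cacna2d3* 0.0045, *Scn2b* 0.0043, *Hcn3* -0.0024 and *Hcn4* 0.063. With 1 mouse left out, values crossed 0 for *Cacna1c* (-0.14 to 0.029), *Cacna1i* (-0.070 to 0.033), *Cacna2d3* (-0.052 to 0.012), *Scn1a* (-0.056 to 0.011), *Scn8a* (-0.054 to 0.013), *Scn9a* (-0.028 to 0.13), *Scn4b* (-0.024 to 0.084), *Hcn4* (-0.082 to 0.093). Class medians moved by more than 1 SD between mice for HCN channels to -0.20 in lanes 5 and 6, 0.14 in lanes 7 and 8 and -0.10 in lanes 5 and 6 without congenic mouse 1, for sodium pores to 0.033 in lanes 7 and 8, and for calcium beta subunits to 0.010 in lanes 5 and 6 without congenic mouse 1. Within 1 SD, the T-type median turned to 0.033 without congenic mouse 1, 0.046 without both mice and 0.077 in lanes 5 and 6 without congenic mouse 1, and the HCN median to just under 0 with the replicate block and to -0.026 at the lowest with 1 mouse left out. These settings but the block hold fewer mice, and the cause of the changes was not tested. Genes of few counts, such as *Cacna1f*, are limited by depth.

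With mouse number as a replicate block, 8 channel genes were under an unadjusted p of 0.05, beside 8.83% of all genes, and 0 of all genes, channel genes included, passed an FDR of 5%. Mice of the same number ran on the same lane pair, and the labels name nothing else they share. Deviations of mice with the same number correlated at r = -0.17 to 0.49, over 0.1 in 4 of 8 pairs, and 2 of 8 mice correlated best with their own number.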
